A study of Mus musculus with 24 samples.

Results

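*Sall2*, *Adrb3*, *Hydin*, *Pdcl2* and *Ptges* are the 5 genes, of 14456 tested and 22926 with a line in the deposited tables, that were called different between undifferentiated *Tet1*/*Tet2* double knockout (DKO) and wild-type (WT) mouse embryonic stem cells (ESCs). They were chosen by that comparison, at a Benjamini-Hochberg adjusted p below 0.05 and beyond 2-fold in either direction by edgeR's quasi-likelihood test. Their values in DKO against WT at that stage are therefore given below as a description, without a test. All 5 symbols were found in both tables, and all 5 passed the filter on low counts at both stages.

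The study asked how loss of Tet proteins alters ESCs before and during differentiation, and sequenced polyadenylated RNA from 24 libraries, 12 from undifferentiated cells (D0) and 12 taken 6 days after leukemia inhibitory factor (LIF) was withdrawn from the medium (D6). Each library was made from 1 clone. On each day there were 3 clones of WT (O4.1, O4.2 and O4.13), 3 of Tet1-/-, 2 of Tet2-/- (Tet2_KO_3.10 and Tet2_KO_3.11), 2 of DKO (DKO_5.11 and DKO_5.12) and 2 of TKO (TKO_8.4 and TKO_8.12), the line that also lacks *Tet3*. The Tet1-/- clones were Tet1_KO_2.1, Tet1_KO_2.3 and Tet1_KO_2.4 at D0 and Tet1_KO_2.1, Tet1_KO_2.2 and Tet1_KO_2.4 at D6, so 11 clones were sequenced on both days. All clones, WT included, descend from a single 129/SVj-derived ESC clone with eGFP inserted at the *Pou5f1* (Oct4) locus and were grown on gelatin, and the knockouts carry CRISPR-induced indels. Where the study found a single edited allele, as for *Tet2* in both Tet2-/- clones and *Tet3* in both TKO clones, it left room for a larger edit on the other allele. Clones of 1 genotype are the replicates, so p-values measure the spread between clones of 1 parental line. A genotype with 2 clones has little information of its own on that spread and borrows it from the other genotypes of the same fit.

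Tet proteins oxidise 5-methylcytosine, a modification found in mammals mostly at CG dinucleotides, which is a step towards the removal of DNA methylation. In ESCs *Tet1* and *Tet2* are the abundant members of the family and *Tet3* is low. LIF holds mouse ESCs in the undifferentiated state, and cells deprived of it leave that state and enter several lineages.

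The 5 genes have unrelated roles. *Sall2* encodes a zinc-finger transcription factor of the spalt family, to which the ESC factors *Sall4* and *Sall1* belong. *Adrb3* encodes the beta-3 adrenergic receptor, a G protein-coupled receptor best known from adipocytes. *Hydin* encodes a protein of the central pair of microtubules in motile cilia. *Pdcl2*, a phosducin-like gene, is known mainly from the testis, where it acts in sperm formation. *Ptges* encodes the inducible prostaglandin E synthase, the enzyme that turns prostaglandin H2 into prostaglandin E2. They lie on separate chromosomes except *Adrb3* and *Hydin*. On mm9, the build the authors mapped to, *Sall2* is at chr14:52930847-52948437 (minus strand), *Adrb3* at chr8:28336248-28340060 (minus), *Hydin* at chr8:112790877-113134153 (plus), *Pdcl2* at chr5:76741140-76760181 (minus) and *Ptges* at chr2:30744991-30785383 (minus). All 5 are protein-coding. Of the bases in *Hydin* exons, 237 (1.44%) also lie in exons of *Gm17466*, a noncoding RNA on the opposite strand. Whether the counting used strand is not given in the sources used here, so reads from those bases cannot be assigned to either gene.

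The knockouts share 3 guides, shown because they define the genotypes that every comparison rests on. Each lies within a coding exon, on the minus strand of mm9, and matched its chromosome 1 time. The 20-base guide is in lower case and the adjoining PAM in the genome is in capitals.

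Tet1 guide, chr10:62296296-62296315: ggctgctgtcagggagctcaTGG

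Tet2 guide, chr3:133148620-133148639: gaaagtgccaacagatatccAGG

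Tet3 guide, chr6:83329888-83329907: aaggaggggaagagttctcgAGG

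The bases just upstream of the RefSeq start sites of 4 of the 5 genes are printed next, because CG dinucleotides, given in capitals, are the bases at which Tet proteins act. No methylation measurement is part of the tables analysed here. The study did measure DNA methylation at D0, by reduced representation bisulfite sequencing, and those data were not used. RefSeq's promoter table (build GRCm38.p6, not the build of the counts) holds windows from 250 bases before a start to 50 bases after it, and 4 of the 5 genes matched. The 250 bases before each start are shown 5′ to 3′ on the strand of the gene.

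Sall2 window 2, chr14:52316324-52316573 (minus): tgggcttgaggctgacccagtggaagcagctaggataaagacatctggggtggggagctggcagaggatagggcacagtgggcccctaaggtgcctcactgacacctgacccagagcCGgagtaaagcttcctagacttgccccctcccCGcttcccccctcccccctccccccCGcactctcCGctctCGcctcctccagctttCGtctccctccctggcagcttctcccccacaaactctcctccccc

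Hydin, chr8:110266727-110266976 (plus): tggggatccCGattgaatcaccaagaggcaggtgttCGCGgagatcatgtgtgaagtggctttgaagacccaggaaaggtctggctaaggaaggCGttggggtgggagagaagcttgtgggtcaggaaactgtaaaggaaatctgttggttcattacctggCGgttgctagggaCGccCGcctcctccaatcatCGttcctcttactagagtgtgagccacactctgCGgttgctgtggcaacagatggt

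Pdcl2, chr5:76331157-76331406 (minus): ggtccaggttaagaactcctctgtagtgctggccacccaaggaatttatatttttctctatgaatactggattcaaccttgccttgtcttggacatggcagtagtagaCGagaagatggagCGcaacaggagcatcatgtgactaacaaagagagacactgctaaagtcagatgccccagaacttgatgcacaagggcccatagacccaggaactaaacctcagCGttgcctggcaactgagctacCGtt

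Ptges, chr2:30903298-30903547 (minus): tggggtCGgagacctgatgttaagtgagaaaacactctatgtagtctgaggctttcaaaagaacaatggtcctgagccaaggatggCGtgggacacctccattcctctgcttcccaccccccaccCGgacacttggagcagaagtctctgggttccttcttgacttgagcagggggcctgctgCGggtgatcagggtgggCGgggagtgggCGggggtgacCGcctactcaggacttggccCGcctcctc

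The whole 300-base windows held 12 CG in *Hydin*, 10 in *Ptges*, 7 in *Pdcl2*, 10 in the *Sall2* window shown and 1 in a second *Sall2* window. The median over all 32851 windows was 7. The share of all windows with at least as many CG, a palindrome read alike on both strands, was 39.6% for *Hydin*, 43.5% for *Ptges* and for the *Sall2* window shown, 52.1% for *Pdcl2* and 94.6% for the other *Sall2* window. The genes lower in DKO and the gene higher in DKO thus had start sites of similar, middling CG content, with 1 CG-poor alternative start in *Sall2*.

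**Figure D1:**
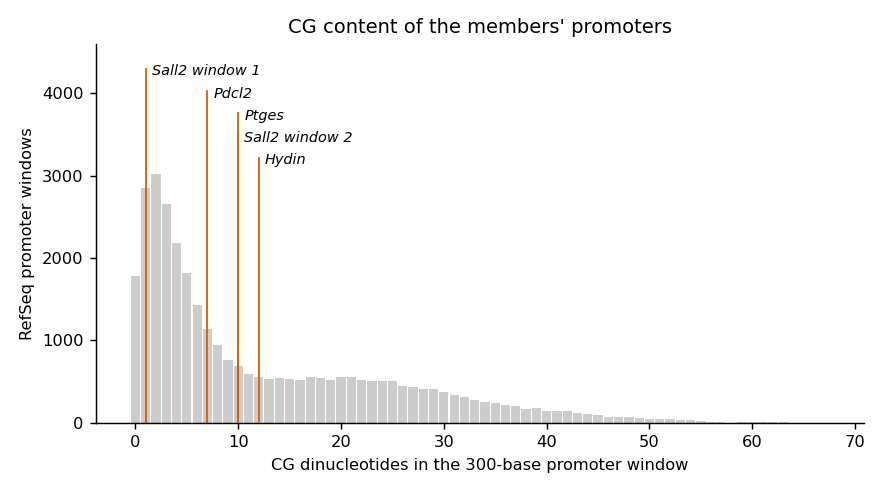
Histogram of the number of CG dinucleotides (x axis) in 300-base RefSeq promoter windows (y axis, number of windows; 32851 in all), with a vertical line for each window of *Sall2*, *Hydin*, *Pdcl2* and *Ptges*. The lines stand at 1 to 12 CG, within the body of the distribution, whose median is 7.

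Summed over the first line of each symbol, libraries held 18400463 to 37290208 counts. Levels are given as CPM, counts per 1000000 of a library's total scaled by TMM factors (0.918 to 1.10) over all 24 libraries, not by the spike-ins that the study used, and 3 counts, the limit that a count of 0 allows, correspond to 0.0814 to 0.151 CPM, counting error only. The D0 libraries carried the markers of undifferentiated ESCs, with *Pou5f1* at 595.9 to 873.5 CPM and 14 naive markers summing to 5432 to 6688 CPM, against 929 to 2786 CPM at D6. An indel need not lower the RNA of the edited gene. At D0 every library edited at *Tet2* lay below the WT range of its RNA, which was 87.9 to 94.0 CPM: Tet2-/- clones were at 20.9 and 23.2 CPM, DKO clones at 55.7 and 22.3 and TKO clones at 42.5 and 8.16. *Tet1* had 220 to 431 CPM in WT, 93.4, 126 and 358 in Tet1-/- and 373 and 231 in DKO, and overlapped between edited and WT clones. At D6 *Tet2* RNA overlapped as well, with 12.3 to 16.0 CPM in WT, 15.9 and 16.6 in Tet2-/- and 16.2 in TKO clone TKO_8.4, while TKO clone TKO_8.12 and both DKO clones (9.99 and 5.73) stood below WT. Both TKO clones stood apart from each other at D0, where their counts varied by 98.1 times the sampling variance against 8.06 to 23.4 times in the other pairs of the same genotype, and *Tet1* RNA was at 568 CPM in clone TKO_8.4 and 41.7 in clone TKO_8.12. TKO results are therefore also given for each clone.

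At D0, *Sall2* and *Adrb3* were higher in DKO than in WT, and *Hydin*, *Pdcl2* and *Ptges* were lower. They made up 0.0346% of the genes tested, with 2 higher (0.0138%) and 3 lower (0.0208%), and the share carries no information on the members because this comparison chose them. The strongest fold was that of *Hydin*, and *Adrb3* lay nearest to the fold threshold.

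*Sall2* was at 29.1 CPM in DKO clone DKO_5.11 and 30.7 in clone DKO_5.12, against 9.57, 8.11 and 11.0 in WT clones O4.1, O4.2 and O4.13. The groups did not overlap, and the DKO clones were closely alike at about 3-fold the WT level (log2 fold change 1.63, with an SE, the standard error of the fit, of 0.223). *Adrb3* was at 18.4 and 16.3 CPM in DKO against 7.27, 8.52 and 7.99 in WT. Every DKO value again lay above every WT value, at a log2 fold change of 1.12 (SE 0.145).

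*Hydin* was at 1.82 and 1.53 CPM in DKO, from 41 and 31 counts, against 6.46, 6.75 and 6.91 CPM in WT. The WT clones were close to one another and the DKO clones lay far below them, at a log2 fold change of -2.01 (SE 0.271). *Pdcl2* was at 2.84 and 2.86 CPM in DKO against 9.86, 8.23 and 10.6 in WT, a log2 fold change of -1.76 (SE 0.211). *Ptges* was at 8.26 and 6.65 CPM in DKO against 15.2, 24.6 and 18.0 in WT. Its groups did not overlap either, but the WT clones ranged more widely than for the other 4 genes (log2 fold change -1.38, SE 0.201).

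**Figure D2:**
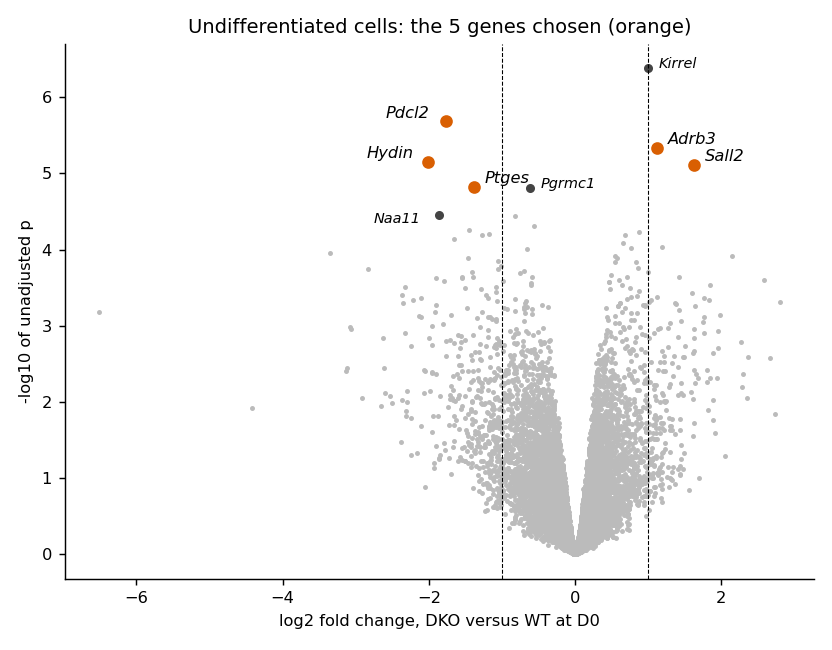
Log2 fold change of DKO against WT at D0 (x axis) and -log10 of the unadjusted p from edgeR (y axis) for the 14456 genes tested, with dashed lines at 2-fold. The 5 genes chosen (orange) have the smallest p among the genes beyond 2-fold, and *Kirrel*, *Pgrmc1* and *Naa11* (dark grey) lie just outside the thresholds.

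Just inside the thresholds stood *Ptges*, with an adjusted p of 0.0323 in edgeR, and *Adrb3*, with the smallest fold. Just outside, beyond 2-fold, was *Naa11* (log2 fold change -1.87, adjusted p = 0.0590 in edgeR), followed by *Rps6kl1*, *Acap1*, *Klk8* and *Mapt*, all lower in DKO with adjusted p from edgeR of 0.0624 to 0.0663. *Kirrel* (log2 fold change 0.99, adjusted p = 0.00604) and *Pgrmc1* (-0.62, edgeR adjusted p 0.0323) passed on p and were within 2-fold. At an unadjusted p under 0.05 and more than 2-fold, 436 genes (3.02%) differed in DKO. How many genes are called depends on the fit. These refits reuse the libraries that chose the genes and are a description, not a further test. DESeq2 called 110 and a fit of the WT and DKO libraries alone 133, each with all 5 genes among them. With all 24 libraries in one fit *Adrb3* and *Pdcl2* were not called, and with all lines of a symbol summed *Ptges* was not. Without DKO clone DKO_5.11 or DKO_5.12, which leaves 1 DKO library, no member was called. Without WT clone O4.1, O4.2 or O4.13, 3, 3 and 1 genes were called. *Sall2*, *Adrb3* and *Hydin* were then outside the adjusted p threshold each time.

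Markers of 2-cell-like cells, a rare state of ESC cultures, were higher in these DKO libraries than in WT. At D0, 6 such genes summed to 6.94 to 14.2 CPM in DKO and 2.504 to 5.79 in WT. Their median log2 fold change was 1.10, with 0 of 6 called, which the choice of the members fixed. They summed to 4.38 to 5.42 CPM in Tet1-/-, 0.768 to 1.34 in Tet2-/- and 0.453 to 0.961 in TKO, so Tet2-/- and TKO lay below WT. Fibroblast markers, which feeder cells would bring, summed to 36.5 to 37.8 CPM in DKO and 37.8 to 47.0 in WT. The part of such cells in the values of the 5 genes was not tested. In bulk RNA, fewer cells that express a gene cannot be told apart from less of its RNA in each cell.

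Compared per length of exon, since raw levels of different genes depend on length, *Pdcl2* had the highest level of the 5 in WT at D0 (8.02 CPM per kb, mean of 3 clones), followed by *Ptges* (4.90), *Adrb3* (2.74), *Sall2* (1.76) and *Hydin* (0.406). In DKO the order of these levels was *Adrb3* (6.00 CPM per kb, mean of 2 clones), *Sall2* (5.50), *Pdcl2* (2.39), *Ptges* (1.90) and *Hydin* (0.101). *Hydin* thus stayed the lowest on this scale in both genotypes.

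**Figure D3:**
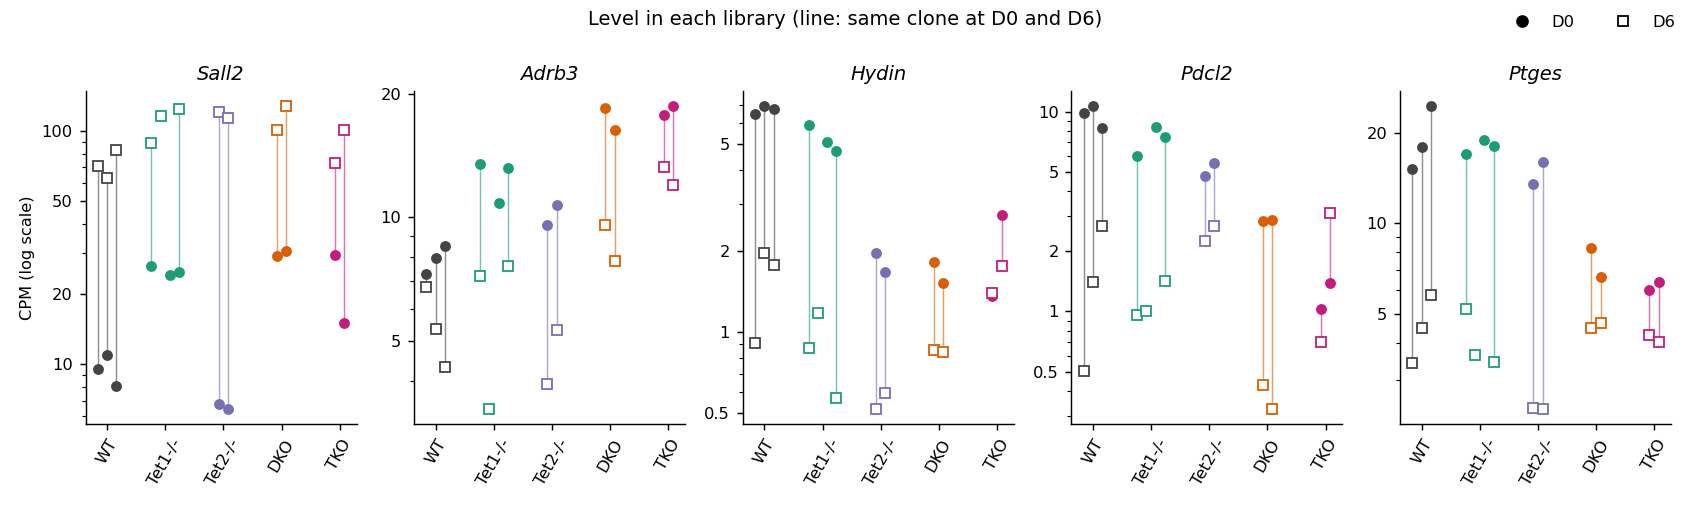
Level of each gene in every library (y axis, CPM on a log scale) by genotype (x axis), with filled circles for D0 and open squares for D6, and a line joining the same clone on both days. At D0 the DKO circles lie above the WT circles for *Sall2* and *Adrb3* and below them for *Hydin*, *Pdcl2* and *Ptges*; every clone sequenced on both days has its *Sall2* square above its circle.

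The other knockouts at D0 showed which genotype had which level. They were compared with the same 3 WT libraries that chose the genes, so these fold changes are not independent of the choice. The fold changes are given side by side as a description. The shared WT values and fit favour calls among the members, so counts of calls here cannot be weighed against the shares of all genes. TKO differed from WT past both thresholds for 5 of the 5 genes, where 3.15% of all genes tested did so in edgeR. A fit of the WT and TKO libraries alone called 3 genes, of which *Pdcl2* was the single member. In Tet2-/- this held for 1 of the 5, *Hydin* (3.19% of all genes tested), and in Tet1-/- for 0 of the 5, with 1 gene (0.00692%) called in all; 51 were called there by DESeq2 and 1828 genes (12.6%) had an unadjusted p under 0.05 in edgeR. *Sall2* missed the p threshold in Tet1-/- (edgeR adjusted p 0.0673) and was called there without a filter on low counts, by DESeq2, with all 24 libraries in one fit and with only the WT and Tet1-/- libraries (adjusted p 3.12e-07 to 0.00557).

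*Sall2* at D0 was high in Tet1-/-, with 26.5, 24.2 and 25.0 CPM, and low in Tet2-/-, with 6.74 and 6.46. The Tet1-/- clones lay just below the DKO clones and clear of WT, and the Tet2-/- clones lay below WT. TKO was split, with 15.0 CPM in clone TKO_8.4 and 29.6 in clone TKO_8.12, both above WT. The log2 fold changes against WT were 1.38 (SE 0.205) in Tet1-/-, -0.56 (0.238) in Tet2-/- and 1.22 (0.223) in TKO, and without TKO clone TKO_8.12 the last was 0.65, under 2-fold.

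*Adrb3* at D0 stood in steps across genotypes without overlap up to DKO: WT below Tet2-/- (9.60 and 10.7 CPM), below Tet1-/- (13.5, 10.9 and 13.2), below DKO. TKO (18.6 and 17.7 CPM) overlapped with DKO. The log2 fold changes against WT were 0.34 in Tet2-/-, 0.64 in Tet1-/- and 1.19 in TKO, with SEs of 0.133 to 0.147.

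*Hydin* at D0 was low in the genotypes that lack *Tet2*. Tet2-/- clones had 1.96 and 1.67 CPM and TKO clones 2.72 and 1.36, both overlapping with DKO, whereas Tet1-/- clones had 5.89, 5.08 and 4.72, below WT and far above the rest. The log2 fold changes against WT were -1.91 (SE 0.263) in Tet2-/-, -1.72 (0.262) in TKO and -0.38 (0.212) in Tet1-/-; without Tet2-/- clone Tet2_KO_3.11 the first was -1.78 and no longer passed the p threshold.

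*Pdcl2* at D0 was graded downwards: 5.97, 8.36 and 7.49 CPM in Tet1-/-, overlapping with WT, then 4.74 and 5.52 in Tet2-/-, then DKO, and lowest in TKO at 1.38 and 1.03. The TKO clones lay below the DKO clones without overlap. The log2 fold changes against WT were -0.42, -0.92 and -2.99 in Tet1-/-, Tet2-/- and TKO, and that in Tet2-/- passed both thresholds (-1.01) without WT clone O4.2.

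*Ptges* at D0 was near the WT range in both single knockouts, at 17.0, 18.9 and 18.2 CPM in Tet1-/- and 13.6 and 16.0 in Tet2-/-, and low in TKO at 6.35 and 5.98. TKO and DKO did not overlap with either single knockout. The log2 fold changes against WT were -0.12, -0.40 and -1.65 in Tet1-/-, Tet2-/- and TKO.

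**Figure D4:**
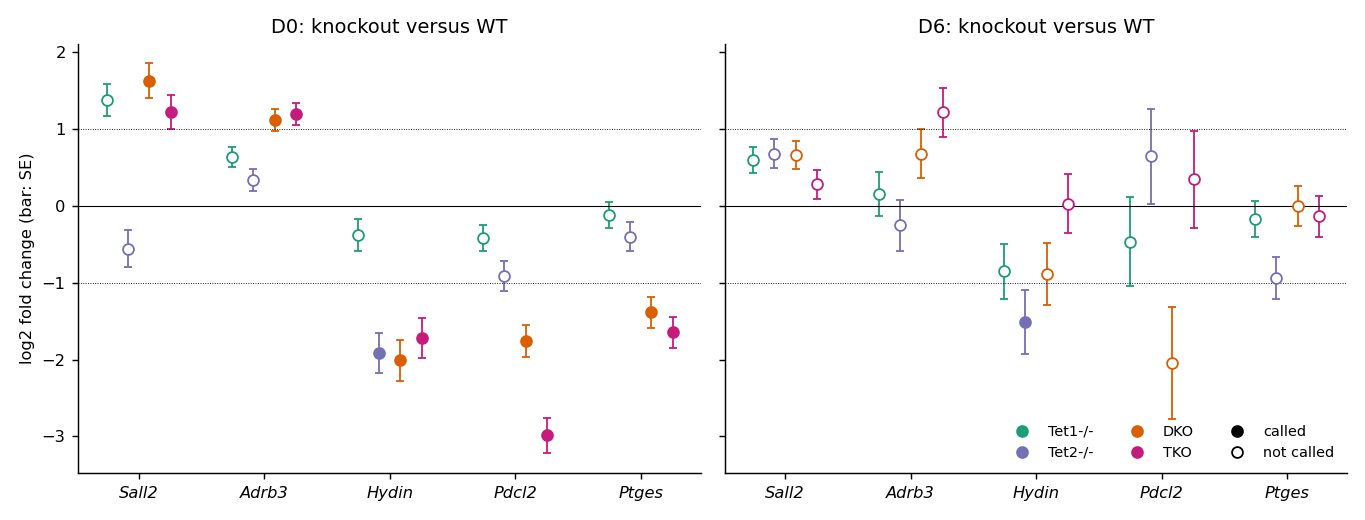
Log2 fold change against WT (y axis; bars, SE from edgeR) of each gene in Tet1-/-, Tet2-/-, DKO and TKO at D0 (left) and D6 (right), with filled points where the change passed both thresholds. At D0 all TKO and DKO points are filled, the DKO points by choice of the genes, and at D6 the only filled point is *Hydin* in Tet2-/-.

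Set beside the sum of both single-knockout changes, on the log2 scale, the D0 change in DKO was 1.63 against a sum of 0.82 for *Sall2*, 1.12 against 0.98 for *Adrb3*, -2.01 against -2.29 for *Hydin*, -1.76 against -1.33 for *Pdcl2* and -1.38 against -0.52 for *Ptges*. These values use the libraries that chose the genes and are a description. At D6 the difference from the sum did not pass for any of the 5 genes (edgeR adjusted p 0.0734 to 0.261).

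A comparison of Tet1-/-, Tet2-/- and TKO with one another at D0 uses none of the DKO and WT levels that chose the genes. It is not fully independent of the choice, because the spread within these genotypes entered the D0 fit that made the calls (5 genes with them, 133 without), which favours genes with little spread between their clones, so its p-values may be too small. It was added after the data had been seen, and its 7 libraries were fitted on their own over 14175 genes. *Sall2* was lower in Tet2-/- than in Tet1-/- by -1.93 on the log2 scale (SE 0.274, edgeR adjusted p 0.0105) and *Hydin* by -1.52 (SE 0.316, edgeR adjusted p 0.0266). For *Adrb3*, *Pdcl2* and *Ptges* the change from Tet1-/- to Tet2-/- was -0.29, -0.49 and -0.28 and did not pass, with adjusted p from edgeR of 0.181 to 0.263. So 2 of the 5 genes were called, where 4.47% of all genes tested were.

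TKO against Tet1-/-, the pair that differs in *Tet2* and *Tet3*, gave *Pdcl2* lower by -2.57 (SE 0.261, edgeR adjusted p 0.00640) and *Ptges* lower by -1.53 (SE 0.157, edgeR adjusted p 0.00645). In both genes the 2 TKO clones lay below all 3 Tet1-/- clones. *Hydin* was at -1.34 with an adjusted p of 0.0511 in edgeR, just outside the threshold. It was called with DESeq2 size factors, without a filter on low counts, by DESeq2 and with all 24 libraries in one fit (adjusted p 0.00356 to 0.0495). *Adrb3* was at 0.56 (edgeR adjusted p 0.0817) and *Sall2* at -0.16 (edgeR adjusted p 0.735). Thus 2 of the 5 were called, against 2.38% of all genes tested.

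TKO against Tet2-/-, the pair that differs in *Tet1* and *Tet3*, gave *Sall2* higher by 1.77 (SE 0.289, edgeR adjusted p 0.0246), *Pdcl2* lower by -2.08 (SE 0.273) and *Ptges* lower by -1.25 (SE 0.166), the latter both with an adjusted p of 0.0134 in edgeR. *Adrb3* was at 0.85, within 2-fold, with an adjusted p of 0.0453 in edgeR, and *Hydin* at 0.18 (edgeR adjusted p 0.781). Thus 3 of the 5 were called, against 1.96% of all genes tested. Across these 3 comparisons, *Pdcl2* and *Ptges* were lower in TKO than in either single knockout, *Sall2* was lower in Tet2-/- than in Tet1-/- or TKO, and *Hydin* was lower in Tet2-/- than in Tet1-/-.

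Several of these calls needed every library. In a fit of the TKO and Tet2-/- libraries alone 0 genes were called, and *Sall2*, *Pdcl2* and *Ptges* had adjusted p from edgeR of 0.269, 0.24 and 0.246. Without either Tet2-/- clone (Tet2_KO_3.10 or Tet2_KO_3.11) the calls in TKO against Tet2-/- were lost, with adjusted p from edgeR of 0.173 and 0.220 for *Sall2*, 0.0862 and 0.139 for *Pdcl2* and 0.0862 and 0.161 for *Ptges*. That of *Hydin* in Tet2-/- against Tet1-/- was lost without any 1 of the 5 clones (adjusted p 0.0753 to 0.195, edgeR), and that of *Sall2* without Tet1-/- clone Tet1_KO_2.3 (0.0699) or Tet1_KO_2.4 (0.0573) or Tet2-/- clone Tet2_KO_3.10 (0.119) or Tet2_KO_3.11 (0.115). *Ptges* in TKO against Tet1-/- was lost without Tet1-/- clone Tet1_KO_2.3 (edgeR adjusted p 0.0548), while *Pdcl2* in that comparison was called whichever clone was left out. Without TKO clone TKO_8.4 *Hydin* was called lower in TKO than in Tet1-/- (-1.91, edgeR adjusted p 0.000396), and without clone TKO_8.12 it was at -0.93. *Sall2* in TKO against Tet2-/- was called with either TKO clone alone, at 2.19 with clone TKO_8.12 and 1.20 with clone TKO_8.4.

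After 6 days without LIF, the libraries of DKO and WT are from the same clones as at D0 but were not used to choose the genes. No gene was called in DKO against WT at D6 (0% of 15435) by edgeR, members included; at an unadjusted p under 0.05 the count was 2251 (14.6%), and DESeq2 called 189, none a member. The 5 log2 fold changes had the sign of D0, but that of *Ptges* was nil.

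*Sall2* at D6 was at 128 and 101 CPM in DKO against 83.1, 70.8 and 63.3 in WT. The groups did not overlap, and the log2 fold change was 0.66 (SE 0.186, edgeR adjusted p 0.205). *Adrb3* was at 7.84 and 9.60 CPM in DKO and 4.32, 6.76 and 5.35 in WT, again without overlap (log2 fold change 0.68, SE 0.318, edgeR adjusted p 0.360).

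*Hydin* at D6 was at 0.841 and 0.854 CPM in DKO, from 31 and 26 counts, and at 1.78, 0.908 and 1.97 in WT. The DKO clones lay just below the lowest WT clone, O4.1, with a log2 fold change of -0.88 (SE 0.400, edgeR adjusted p 0.342). *Pdcl2* was at 0.326 and 0.427 CPM in DKO, from 12 and 13 counts, below WT at 2.69, 0.504 and 1.40. Its log2 fold change of -2.04 was the largest of the 5 but had a SE of 0.731 (edgeR adjusted p 0.264). The WT clones differed several-fold. *Ptges* was at 4.64 and 4.47 CPM in DKO, inside the WT range of 3.43 to 5.77, with a log2 fold change of -0.01 (SE 0.261, edgeR adjusted p 0.994). *Sall2*, *Hydin* and *Pdcl2*, 3 of the 5, had an unadjusted p under 0.05 in edgeR, where 14.6% of all genes did.

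Tet2-/- at D6 had 2201 genes called against WT (14.3% of those tested), and 1 of the 5 members among them. This was *Hydin*, at 0.518 and 0.593 CPM from 18 and 17 counts, below every WT clone (log2 fold change -1.51, SE 0.420, edgeR adjusted p 0.0237). The call was lost without WT clone O4.13 (edgeR adjusted p 0.0785) or without either Tet2-/- clone (0.146 without Tet2_KO_3.10 and 0.128 without Tet2_KO_3.11). *Sall2*, at 121 and 115 CPM, was above every WT clone by 0.68 (edgeR adjusted p 0.0224) and *Ptges*, at 2.42 and 2.41 CPM, was below every WT clone by -0.94 (edgeR adjusted p 0.0276). Both passed on p and were within 2-fold; *Ptges* was called without WT clone O4.1 (-1.08, edgeR adjusted p 0.0288). *Pdcl2* (2.25 and 2.69 CPM) and *Adrb3* (3.95 and 5.34 CPM) overlapped with WT. *Hydin* was thus below WT in Tet2-/- on both days.

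In Tet1-/- and TKO at D6 edgeR called 0% of 15435 genes against WT, members included; 1949 (12.6%) and 3629 (23.5%) had an unadjusted p under 0.05, and DESeq2 called 44 and 481. *Adrb3* in TKO, at 12 and 13.2 CPM, lay above every other D6 library, with a log2 fold change of 1.22 (SE 0.317, edgeR adjusted p 0.0780), and it was called by DESeq2 (1.22, adjusted p 0.00835) and when both days were fitted together (1.21, edgeR adjusted p 0.0116). *Pdcl2* in TKO was split between 3.107 CPM in clone TKO_8.4 and 0.699 in clone TKO_8.12, and its change against WT was 1.02 with the first clone alone and -1.15 with the second. *Sall2* in Tet1-/- was at 89.1, 116 and 124 CPM, above every WT clone (log2 fold change 0.60, edgeR adjusted p 0.322). *Sall2* was thus above all WT values in Tet1-/-, Tet2-/- and DKO at D6, and in TKO in 1 clone of 2 (101 and 73.0 CPM).

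DKO was also compared with the other knockouts at D6. Against Tet2-/-, *Pdcl2* was lower by -2.68 (SE 0.768, edgeR adjusted p 0.0396), 1 of the 5 members called against 9.5% of all genes tested. The call was lost without any 1 of the 4 libraries, with adjusted p from edgeR of 0.222 and 0.139 without DKO clone DKO_5.12 or DKO_5.11 and 0.118 and 0.17 without Tet2-/- clone Tet2_KO_3.10 or Tet2_KO_3.11. *Ptges* (0.94, edgeR adjusted p 0.0525) and *Adrb3* (0.93, edgeR adjusted p 0.0977) were higher in both DKO clones than in both Tet2-/- clones and did not pass. Against Tet1-/- and TKO edgeR called 0 genes (0%); 824 (5.34%) and 1277 (8.27%) had an unadjusted p under 0.05, and DESeq2 called 3 and 4. At D6 *Pdcl2* had its lowest level in DKO, below all libraries of each other genotype.

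The D6 libraries differed in their level of naive markers, and the Tet2-/- libraries lay above all others. The sum of these markers was 929 to 1986 CPM in WT, 1391 to 1463 in DKO, 1024 to 1863 in Tet1-/-, 1934 to 1997 in TKO and 2567 to 2786 in Tet2-/-, and 15 genes of differentiated lineages summed to 1537 to 2052 CPM in WT, 1426 to 2106 in Tet1-/-, 1213 to 1441 in Tet2-/-, 1381 to 1414 in DKO and 749 to 1082 in TKO. The 6 markers of 2-cell-like cells summed to 4.31 to 8.77 CPM in DKO and 0.399 to 0.605 in WT at D6. They summed to 0.699 to 6.429 CPM in TKO, a range that overlapped with DKO. In Tet1-/- they summed to 0.3571 to 1.48 CPM and in Tet2-/- to 0.4319 to 0.6626. Fibroblast markers at D6 summed to 118.7 to 411.9 CPM in WT, 66.9 to 75.39 in DKO and 24.37 to 26.75 in Tet2-/-. They summed to 44.33 to 195.8 CPM in Tet1-/- and 52.82 to 129.3 in TKO. The part of these differences in the D6 values of the 5 genes was not tested.

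As to the change from D0 to D6 within each genotype, *Sall2* passed both thresholds upwards in all 5 genotypes. *Hydin* and *Ptges* passed downwards in WT, Tet1-/- and Tet2-/-, *Pdcl2* in WT, Tet1-/- and DKO, and *Adrb3* in Tet1-/- and Tet2-/-. In WT the log2 fold changes were 2.92 for *Sall2*, -2.09 for *Hydin*, -2.61 for *Pdcl2* and -2.07 for *Ptges*, all past both thresholds, and -0.54 for *Adrb3*, within 2-fold. In DKO they were 1.94 for *Sall2* and -2.92 for *Pdcl2*, past the thresholds, and -0.99, -0.98 and -0.71 for *Adrb3*, *Hydin* and *Ptges*, within 2-fold, where *Adrb3* was beyond it without D0 clone DKO_5.12 (-1.05) or D6 clone DKO_5.11 (-1.15). WT and DKO share their D0 libraries with the comparison that chose the genes, so these values are a description. Of all genes tested, 34% were called in WT and 29.2% in DKO, so a call is common in this contrast.

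In Tet1-/-, whose levels were not in the contrast that chose the genes although the spread of its D0 clones entered that fit, 5 of the 5 were called where 31.1% of all genes were. *Sall2* rose by 2.12 (SE 0.198, edgeR adjusted p 5.6e-08), and *Hydin*, *Pdcl2* and *Ptges* were lower at D6 by -2.58, -2.69 and -2.14. *Adrb3* was at -1.04, close to the fold threshold, and was within 2-fold without Tet1-/- D0 clone Tet1_KO_2.1 (-0.98) or Tet1_KO_2.4 (-0.999) or D6 clone Tet1_KO_2.2 (-0.71), and at -0.85 with clone as a block and -0.83 with library totals in place of TMM. In Tet2-/- 4 of the 5 were called where 19.1% of all genes were: *Sall2* rose by 4.16 (SE 0.269, edgeR adjusted p 3.86e-09), from 6.74 and 6.46 CPM to 121 and 115, and *Ptges*, *Hydin* and *Adrb3* were at -2.61, -1.70 and -1.13. *Pdcl2* was at -1.06 (edgeR adjusted p 0.0960) and was called in a fit of the Tet2-/- libraries alone (-1.04, edgeR adjusted p 0.000269). *Adrb3* was not called without Tet2-/- D6 clone Tet2_KO_3.10 (-0.93, edgeR adjusted p 0.0671) or with library totals (-0.99).

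In TKO 1 of the 5 was called, *Sall2*, at 1.96 (SE 0.243, edgeR adjusted p 3.95e-06), where 25.4% of all genes tested were. *Ptges* went from 6.35 CPM to 4.03 in clone TKO_8.4 and from 5.98 to 4.24 in clone TKO_8.12 (log2 fold change -0.58, edgeR adjusted p 0.0635). *Hydin* went from 2.72 to 1.75 CPM in clone TKO_8.4 and from 1.36 to 1.40 in clone TKO_8.12 (-0.36, edgeR adjusted p 0.416). *Pdcl2* went from 1.38 to 3.107 CPM in clone TKO_8.4 and went from 1.03 to 0.699 in clone TKO_8.12. Its log2 fold change of 0.71 (edgeR adjusted p 0.286) therefore became -0.78 without D6 clone TKO_8.4 and 1.39, a call, without D6 clone TKO_8.12.

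**Figure D5:**
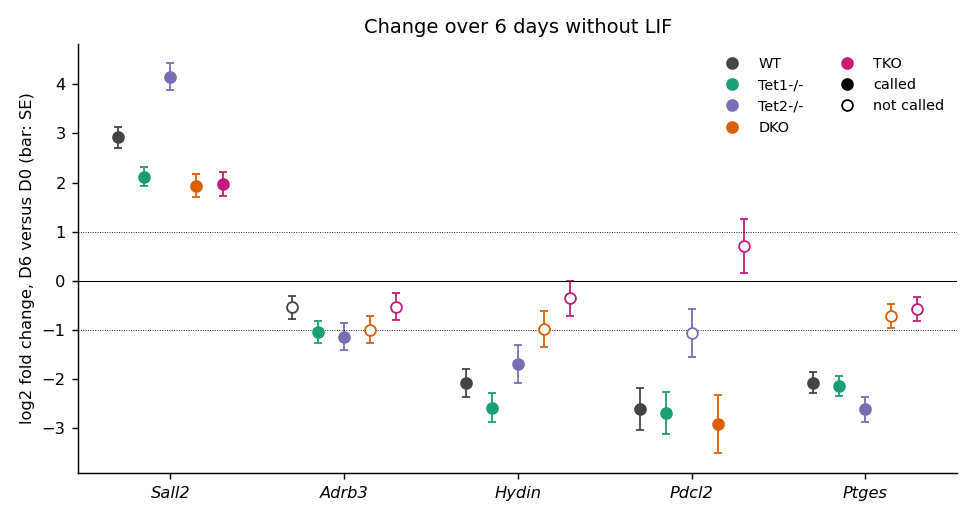
Log2 fold change from D0 to D6 (y axis; bars, SE from edgeR) of each gene within WT, Tet1-/-, Tet2-/-, DKO and TKO, with filled points where the change passed both thresholds. *Sall2* is above 0 in all 5 genotypes and highest in Tet2-/-, while the TKO points of *Hydin*, *Pdcl2* and *Ptges* lie above those of WT, Tet1-/- and Tet2-/-.

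Whether the change over time differed between genotypes was tested with interaction contrasts among Tet1-/-, Tet2-/- and TKO, which were added after the data had been seen. The contrast that chose the genes did not use the levels of these genotypes, but its fit used the spread of their D0 clones, so these p-values too are not fully independent of the choice. From D0 to D6 *Hydin* and *Ptges* fell less in TKO (-0.36 and -0.58) than in Tet1-/- (-2.58 and -2.14), and *Pdcl2* was at 0.71 against -2.69. At D0 these genes were already lower in both TKO clones than in every Tet1-/- clone. The differences in change, TKO minus Tet1-/-, were 2.23 for *Hydin* (SE 0.463, adjusted p = 0.0185), 3.40 for *Pdcl2* (0.693, adjusted p = 0.0175) and 1.56 for *Ptges* (0.322, adjusted p = 0.0182) in edgeR. These were 3 of the 5 against 2.27% of all genes tested. That of *Pdcl2* was 1.90 (edgeR adjusted p 0.149) without TKO D6 clone TKO_8.4, and 3.00 (edgeR adjusted p 0.0759) with clone as a block. Against Tet2-/-, *Ptges* in TKO differed by 2.04 (SE 0.357, edgeR adjusted p 0.00680) and *Sall2* by -2.19 (SE 0.343, edgeR adjusted p 0.00353), 2 of the 5 against 2.3% of all genes. *Hydin* (1.34, edgeR adjusted p 0.158) passed in this contrast without TKO D0 clone TKO_8.4 (1.91, edgeR adjusted p 0.0323). *Sall2* also rose more in Tet2-/- than in Tet1-/-, by 2.03 (SE 0.313, edgeR adjusted p 0.00627), 1 of the 5 against 2.11% of all genes. In fits of only the genotypes compared, the 5 calls that involve TKO were lost (edgeR adjusted p 0.0591 to 0.155), and *Pdcl2* was called in Tet2-/- minus Tet1-/- (1.62, edgeR adjusted p 0.0236). *Adrb3* passed in none of these 3 contrasts, with adjusted p from edgeR of 0.398 to 0.904.

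The same contrast for DKO against WT uses the libraries of the choice and is given as a description: the change over time in DKO differed from that in WT by -0.98 for *Sall2*, -0.46 for *Adrb3*, 1.11 for *Hydin*, -0.30 for *Pdcl2* and 1.36 for *Ptges*. For *Sall2*, *Adrb3*, *Hydin* and *Ptges* the genotypes were closer to each other on the log2 scale at D6 than at D0. The *Ptges* levels of the DKO clones, below every WT clone at D0, lay inside the WT range at D6. *Pdcl2* was lower at D6 in both genotypes.

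The rest of each gene's family or pathway was described with lists that were chosen when earlier results of these data were known. In DKO at D0, 1 of 4 spalt genes (*Sall2*), 1 of 5 adrenergic receptors tested (*Adrb3*), 1 of 4 phosducin-like genes tested (*Pdcl2*), 1 of 24 genes of the motile cilium tested (*Hydin*) and 1 of 17 genes of prostaglandin metabolism and signalling tested (*Ptges*) were called, which in each list is the member itself. The members are all the genes called in this comparison (0.0346% of those tested), so no other gene of a list could be called. The medians of these lists were 0.60, -0.06, -0.04, -0.12 and -0.04 on the log2 scale, against -0.01 for all genes tested. At D6, edgeR called none of these genes in DKO, where it called 0 of all 15435 genes tested.

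The most abundant genes of each list other than the members could not be calls in DKO at D0, so their values are given as a description. Among spalt genes, *Sall4* and *Sall1*, which belong to the ESC transcription factor network, were at 0.30 and 0.06 on the log2 scale. *Sall3*, the remaining spalt gene, was at 0.90. *Sall4* ranged from 261 to 379 CPM over the D0 libraries. Among adrenergic receptors, *Adra2b* was at 1.66 with an edgeR adjusted p of 0.155. *Pdcl3*, *Pdcl* and *Txndc9*, the relatives of *Pdcl2* found in most tissues, were at 0.05, -0.13 and 0.34. *Rfx2* and *Rfx3*, transcription factors of ciliary genes, and *Dnah11*, a dynein of motile cilia, were at 0.15, -0.12 and -0.13. In the prostaglandin list the cytosolic synthase *Ptges3*, the exporter *Abcc4* and the reductase *Ptgr1* were at 0.23, -0.17 and 0.11.

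Some further genes of these lists are named after their values were seen. *Pla2g4a*, the phospholipase that frees arachidonic acid at the start of the pathway in which *Ptges* acts, was at -1.32 in DKO at D0 (SE 0.410, edgeR adjusted p 0.178) and was called lower in TKO (-1.83, edgeR adjusted p 0.0223). *Ptger2*, a receptor of prostaglandin E2, was at -1.23 in DKO (SE 0.361, edgeR adjusted p 0.159). Other genes of that list were above 0 there and did not pass either: the cyclooxygenase *Ptgs2* at 0.94, the receptor *Ptger4* at 0.76 and *Hpgd*, which breaks prostaglandins down, at 0.48 (edgeR adjusted p 0.321 to 0.43). *Foxj1*, the master regulator of motile cilia, was at -0.46 in DKO (edgeR adjusted p 0.627). In Tet2-/- at D0, 4 of the 24 cilium genes tested were called lower and 0 higher, where 3.19% of all genes tested were called. Beside *Hydin* these were *Foxj1* (-1.45), *Dnaic1* (-1.71) and *Efhc2* (-4.34), with edgeR adjusted p of 0.0155 to 0.0460, while *Ccdc40* and *Rfx2* were at 0.52 and 0.37 and did not pass.

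At D0 no gene but the members could be called in DKO, and at D6 edgeR called 0 of 15435 genes. Thus 0 of the 19 germline genes tested, a class that DNA methylation is known to repress, were called on either day. Their median log2 fold change was 0.18 at D0 and 1.34 at D6, where all genes stood at -0.01, and *Rpl10l*, *Ddx4*, *Piwil2* and *Mael*, the most abundant of them, were at 1.89, 1.64, 1.53 and 2.23 at D6, with edgeR adjusted p of 0.171 to 0.224. *Pdcl2*, itself known from the germline, was below WT on both days.

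The genes next to the 5 members were examined too. Of the 10 nearest neighbours with a line in the tables, *Olfr1513* and *Nmu* had at most 1 and 9 counts in any library and were not tested. The other 8 could not be called in DKO at D0, because the members are all the genes called there. Their values are given as a description. *Calb2*, 98767 bases from *Hydin*, was at -1.42 (SE 0.374, edgeR adjusted p 0.133) in DKO and was called lower in TKO (-1.57, edgeR adjusted p 0.0255). It was at 0.70 in Tet2-/-, where *Hydin* was low. *Mettl3* beside *Sall2* (-0.03), *Eif4ebp1* beside *Adrb3* (0.27), *Vac14* on the other side of *Hydin* (-0.19), *Clock* beside *Pdcl2* (0.19) and *Tor1b* (0.32) and *Prrx2* (-0.12) beside *Ptges* had small log2 fold changes in DKO. *Got1l1*, also beside *Adrb3*, was at 0.19.

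Over the 24 libraries, which differ in day as well as genotype and share the scaling, the levels of *Hydin*, *Pdcl2* and *Ptges* went together, with Pearson's r of log2(CPM + 1) of 0.82 for *Hydin* with *Pdcl2*, 0.883 for *Hydin* with *Ptges* and 0.83 for *Pdcl2* with *Ptges*. *Sall2* ran opposite to these 3 (-0.863 to -0.722), and *Adrb3* was the least tied to the others (-0.44 to 0.369).

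By the same measure, of 15638 other genes, the pattern of *Sall2* was most like those of *Wt1* (0.962), *9930014A18Rik* (0.958) and *Zfp326* (0.957). *Wt1*, a zinc-finger transcription factor, was at 2.02 in Tet1-/-, 1.95 in DKO, 0.95 in TKO and -1.27 in Tet2-/- at D0, none of them a call. *Adrb3* was most like *Qpct* (0.883), *Steap1* (0.877) and *Eif2s2* (0.849), at 0.92, 0.66 and 0.69 in DKO at D0. *Hydin* was most like *D630039A03Rik* (0.931), *Mre11a* (0.922) and *Rac2* (0.916), of which *D630039A03Rik* and *Rac2* reached at most 58 and 22 counts.

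*Pdcl2* was most like *Sohlh2*, a germ cell transcription factor (0.942), *9530053A07Rik* (0.932) and *As3mt*, an arsenic methyltransferase (0.93). At D0 *Sohlh2* was at -1.55 in DKO (SE 0.303, edgeR adjusted p 0.0769) and was called in TKO (-3.07, edgeR adjusted p 0.000738). *Ptges* was most like *Trpm1* (0.952), *Ppp1r14d* (0.946) and *Nkx6-3* (0.936), which were at -2.24, -0.96 and -1.13 in DKO at D0 and were all called lower in TKO (-2.52, -1.99 and -2.46, adjusted p from edgeR of 0.00916 to 0.0210). These likenesses are descriptions over libraries that include those that chose the members.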

How the data were processed

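Polyadenylated RNA was sequenced in 24 libraries of mouse ESC clones, 12 on each day. Per the labels and the study's methods, ERCC spike-in RNA was added before poly(A) selection, and paired-end reads were mapped to mm9 with STAR 2.5.1. The study scaled its counts by the spike-ins; that scaling was not repeated here, and levels and tests rest on TMM, which centres on most genes. The authors deposited raw read counts for each of 31928 RefSeq transcript lines, named by gene symbol. The counting strand and the program's settings are not given in the sources used here. For the 4911 symbols with several lines the first was taken, which concerns *Sall2* with 2 lines. No line lacked a gene name.

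Counts were tested with edgeR 4.0.16 (TMM, filterByExpr at a minimum count of 10, quasi-likelihood test) in R 4.3.3, with 1 coefficient for each genotype. D0 (14456 genes), D6 (15435 genes) and, for change over time, both days (15639 genes) were fitted separately. Calls required both more than 2-fold change and a p under 0.05 after Benjamini-Hochberg adjustment over all genes of the fit. DESeq2 1.42.0 was an alternative, as were other scalings, no filter, summed lines, other sets of libraries, a replicate block and each library left out. The scripts were tested on simulated counts.

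The members and gene lists were chosen with earlier results of these data known. Named genes were the members, the most abundant genes of each list, the nearest gene on either side with a line, the 3 genes of highest Pearson correlation with each member over the 24 libraries, and the edited genes. Any other named gene was chosen after its values were seen. A result for 1 gene that the rule names is not reported here.

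Whether replicate numbers pair libraries within a day was not settled, and the main fits did not use them. Correlations of deviations between libraries of the same number were -0.0718 to 0.312 at D0 (11 of 21 above 0.1). At D6 they were -0.377 to 0.312 (7 of 21 above 0.1). Clone names in the labels tie 11 clones across days, with correlations of 0.0813 to 0.193, and a fit with clone as a block was an alternative for the change over time, whose reported values come from the fit without it. The label D6_DKO_512 was read as clone DKO_5.12. No 2 libraries of the same group agreed within sampling noise. Library totals were 18400463 to 37290208 counts.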

Additional observations from a re-analysis of the deposited data

Results flagged for a closer look

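Differences in the change from D0 to D6 between genotypes flagged *Hydin*, *Pdcl2*, *Ptges* and *Sall2*, each by the interaction contrast of edgeR. The spread of the D0 clones of these genotypes entered the fit that chose the genes, so these tests are not fully independent of the choice. In TKO minus Tet1-/- the difference was 2.23 for *Hydin*, 3.40 for *Pdcl2* and 1.56 for *Ptges* on the log2 scale. It kept its call in 16 of 17 alternatives for *Hydin* and *Ptges* and in 14 of 17 for *Pdcl2*, whose value rests on TKO D6 clone TKO_8.4 (1.90, edgeR adjusted p 0.149, without it). In TKO minus Tet2-/- it was -2.19 for *Sall2* and 2.04 for *Ptges*, with the call kept in 14 of 15 alternatives each. These 5 calls were lost when the fit held only the genotypes compared, with edgeR adjusted p of 0.155, 0.106, 0.092, 0.104 and 0.0591 in the order given. In Tet2-/- minus Tet1-/- it was 2.03 for *Sall2*, called in 17 of 17 alternatives. The TKO clones spread most at D0, with a biological coefficient of variation of 0.304 against 0.0756 to 0.114 in the other genotypes, and their part in these values was not tested.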

How the results depend on the processing

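Over all comparisons and alternatives, 204 recomputed counts of called genes stayed within 1.5 times the main count and 102 did not, and of the recomputed values of the 5 genes, 1400 kept direction and side of the threshold, 78 lost and 20 gained a call, and 32 changed sign; causes were not tested. In DKO against WT at D0 the main count of 5 became 79 without a filter, 110 by DESeq2, 133 with only the groups compared and 17 with a replicate block by number. Tet1-/- at D0 (main 1) gave 29, 51, 75 and, with all 24 libraries in one fit, 13, and TKO at D0 (main 455) gave 3 with only the groups compared. At D6, where the main counts were 0, DESeq2 called 189 genes in DKO, 44 in Tet1-/-, 481 in TKO, 3 in DKO against Tet1-/- and 4 in DKO against TKO. All libraries in one fit gave 98 in DKO, 515 in TKO and 1 in DKO against Tet1-/-, no filter gave 93 in TKO, and only the groups compared gave 3 in DKO. DKO against Tet2-/- at D6 (main 1466) gave 2454 and TKO D6 against D0 (main 3976) 2117 with only the groups compared. In the 7 D0 libraries of Tet1-/-, Tet2-/- and TKO, only the groups compared gave 147 in TKO against Tet1-/- (main 338), 0 in TKO against Tet2-/- (main 278) and 1127 in Tet2-/- against Tet1-/- (main 633), while TKO against Tet2-/- gave 540 by DESeq2 and 464 with all 24 libraries. The contrasts of change over time gave in TKO minus Tet1-/- (main 355) 585 by DESeq2, 12 with only the groups compared and 130 with clone as a block, in TKO minus Tet2-/- (main 359) 650 and 16, in Tet2-/- minus Tet1-/- (main 330) 709, 598 and 158, and in DKO minus WT (main 0) 20, 5 and 3, in that order of settings.

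With 1 library left out, counts ranged at D0 from 0 to 3 in DKO, 0 to 9 in Tet1-/-, 5 (without Tet2-/- replicate 2) to 590 in Tet2-/- and 226 to 1147 (without TKO replicate 1) in TKO. At D6 they ranged from 0 (without Tet2-/- replicate 2) to 2635 in Tet2-/-, 0 to 6 in DKO, 0 to 721 (without WT replicate 1) in TKO, 28 (without Tet2-/- replicate 2) to 584 in DKO against Tet2-/- and 0 to 137 (without TKO replicate 1) in DKO against TKO. For the comparisons of the 7 D0 libraries they ranged from 21 to 1173 in TKO against Tet1-/-, 1 to 1935 in TKO against Tet2-/- and 0 to 251 in Tet2-/- against Tet1-/-. For the change over time they ranged from 108 to 724 (without TKO D0 replicate 2) in TKO minus Tet1-/-, 56 (without Tet2-/- D6 replicate 1) to 1033 in TKO minus Tet2-/-, 6 (without Tet2-/- D6 replicate 2) to 1017 in Tet2-/- minus Tet1-/- and 0 to 14 in DKO minus WT.

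The sign changes were near 0 or rested on 1 library. *Ptges* in DKO at D6 was at 0.00206 with DESeq2 size factors, 0.00323 with library totals and 0.00238 with lines summed, and from -0.16 to 0.21 with 1 library left out, above 0 without WT replicate 1 or DKO replicate 2 (0.023). *Ptges* in Tet1-/- at D0 ranged from -0.26 to 0.098 (without WT replicate 2). In TKO D6 against D0 *Hydin* ranged from -0.78 to 0.23 (without D0 replicate 1) and *Pdcl2* from -0.78 (without D6 replicate 1) to 1.39. In TKO against WT at D6 *Pdcl2* ranged from -1.15 (without TKO replicate 1) to 1.02 and was also at -0.04 without WT replicate 2, *Ptges* ranged from -0.29 to 0.076 (without WT replicate 1), and *Hydin* ranged from -0.22 (without WT replicate 2) to 0.23, with -0.17 without TKO replicate 1, -0.0042 with library totals and -0.0016 with a replicate block by number. In Tet1-/- at D6 *Pdcl2* ranged from -0.85 to 0.20 and *Ptges* from -0.37 to 0.045, above 0 without WT replicate 1, and *Adrb3* from -0.032 (without Tet1-/- replicate 3) to 0.44. In DKO against Tet1-/- at D6 *Sall2* ranged from -0.12 to 0.22, below 0 without DKO replicate 1 or Tet1-/- replicate 1 (-0.066), and *Hydin* from -0.26 to 0.23 (without Tet1-/- replicate 2). In DKO against Tet2-/- at D6 *Sall2* ranged from -0.20 to 0.13, above 0 without DKO replicate 2 or Tet2-/- replicate 1 (0.020), and was at 0.040 with library totals.

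None of the differences in change over time that altered sign was a call: *Sall2* in TKO minus Tet1-/- ranged from -0.57 to 0.41 (0.059 without TKO D6 replicate 2), *Pdcl2* in DKO minus WT from -0.65 to 0.34 and *Adrb3* in Tet2-/- minus Tet1-/- from -0.41 to 0.11 (0.019 and 0.094 without Tet1-/- D6 replicate 1 and 3). Without TKO replicate 1, *Sall2* in TKO against Tet1-/- in the 7 D0 libraries was at 0.26, the upper end of a range from -0.73, and *Hydin* in TKO against Tet2-/- at -0.38, the lower end of a range to 0.60.

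In the joint fit of both days *Adrb3* (edgeR adjusted p 0.107) and *Pdcl2* (0.167) were not called in DKO at D0, and with lines summed *Ptges* was not (0.0512). With the replicate number as a block, the 7-library comparisons called 1, 9 and 0 genes and no member. With clone as a block, the calls of *Adrb3* in Tet1-/- over time and of *Pdcl2* in TKO minus Tet1-/- were lost. Low counts limit *Hydin* and *Pdcl2* at D6, where DKO libraries held 12 to 31 counts.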
